A study of Mus musculus with 4 samples.

Results

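The exons described here are short cassette exons of mouse heart muscle, at most 50 nt long, that are either kept in or left out of the finished mRNA. They were chosen from a deposited table of alternative splicing events by 3 features: the table classes them as simple (a single exon between 2 fixed neighbours), their length is up to 50 nt, and they are covered by enough reads to measure both forms. Coverage meant at least 10 reads for inclusion plus exclusion in every library, and at least 5 reads of each form summed over the libraries. Of 54141 exon events in the table, 2821 were simple and up to 50 nt long, 1197 of these had the reads in every library, and 392 had both forms and were kept. They lie in 372 genes, of which 17 hold more than 1 of them, so exons of 1 gene share their transcripts and are not independent. With the same read minima applied to every length and class, 5353 exons were tested in all. The rule itself did not use the direction of change. An exon near full inclusion or full skipping could still meet the minimum of 5 reads of each form through a single group. For such exons the direction is tied to the choice.

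The hearts came from C57BL/6 mice with no transgene named in the labels. The 2 Infarcted samples are tissue of the remote area, away from the infarct, 7 days after a permanent tie of the left anterior descending coronary artery, and the 2 Uninjured samples come from the same area of mice with no infarct. The labels mention neither sex, age nor a sham operation. Poly-A RNA was read as single 50-base reads, so a p-value here rests on 2 hearts against 2, and an exact permutation test of a single value could not go below a two-sided p of 0.33.

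A cassette exon is included when the spliceosome recognises both of its edges. Very short exons leave little room for the proteins that normally bridge an exon, and so depend on extra factors bound in the flanking introns, among them SRRM4, the RBFOX proteins and the repressor PTBP1. Microexons, the shortest class, are best known from neurons, and in heart and skeletal muscle short exons of membrane traffic, cytoskeleton and signalling genes switch during postnatal maturation. Exons whose length is a multiple of 3 add or remove a few amino acids without shifting the reading frame.

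The exons were 3 to 50 nt long, with a median of 39 nt. A length divisible by 3 was found in 264 of 392 (67.3%), against 49.2% of all exons tested, and in 64 of the 69 exons of up to 27 nt (92.8%). In the annotation, 342 exons could be placed by the lengths of the exon and its introns. Of these, 285 lay wholly in coding sequence, 19 in coding and untranslated sequence, 13 in the 5′ UTR, 5 in the 3′ UTR and 20 in noncoding transcripts. The median GC content was 48%, and 50.5% over all exons.

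The sequences of the exons on which the results turn are given here with the 15 bases of the exon on either side. They show how small the variable pieces are and how alike the exons of related genes can be. Capitals mark the cassette exon. Each line reads 5′ to 3′ on the coding strand, as in the GENCODE M21 transcript (GRCm38) whose exon and intron lengths match the deposited event.
Mef2a, 24 nt: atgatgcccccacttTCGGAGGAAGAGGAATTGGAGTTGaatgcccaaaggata
Mef2d, 21 nt: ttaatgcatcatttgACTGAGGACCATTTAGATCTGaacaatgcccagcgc
Ap1b1, 21 nt: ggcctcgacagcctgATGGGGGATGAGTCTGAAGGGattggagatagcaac
Cltc, 21 nt: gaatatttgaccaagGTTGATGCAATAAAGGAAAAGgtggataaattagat
Macf1, 18 nt: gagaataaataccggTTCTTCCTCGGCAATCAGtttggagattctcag
Ppp3ca, 30 nt: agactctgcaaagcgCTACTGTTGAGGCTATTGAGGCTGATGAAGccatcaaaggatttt
Ppp3cb, 30 nt: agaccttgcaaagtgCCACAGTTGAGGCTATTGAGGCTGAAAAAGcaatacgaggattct
Ppp3cc, 30 nt: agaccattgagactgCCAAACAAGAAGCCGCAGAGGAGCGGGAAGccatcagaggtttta
Asph, 42 nt: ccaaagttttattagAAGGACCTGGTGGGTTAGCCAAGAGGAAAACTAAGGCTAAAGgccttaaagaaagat
Bnip2, 36 nt: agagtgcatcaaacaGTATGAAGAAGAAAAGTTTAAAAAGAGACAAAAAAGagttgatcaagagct
Gnas, 45 nt: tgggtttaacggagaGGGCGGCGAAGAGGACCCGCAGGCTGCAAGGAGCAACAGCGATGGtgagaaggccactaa
Arhgef11, 30 nt: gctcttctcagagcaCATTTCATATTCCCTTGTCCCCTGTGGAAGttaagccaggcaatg

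Gene counts summed to between 35715115 and 70885393 per library. The 392 exons together held 61772, 52935, 64888 and 96802 reads in Infarcted 1, Infarcted 2, Uninjured 1 and Uninjured 2, with medians of 73, 60, 63.5 and 75.5 reads per exon. Infarcted 2 stood apart: the summed level of 5 atrial muscle genes was 2009 CPM (gene counts scaled to the TMM-adjusted library total) there, 295 in Infarcted 1, and 88.8 and 49.5 in the uninjured libraries. The summed level of 8 cardiomyocyte genes was 36771 in Infarcted 1, 32161 in Infarcted 2, 56942 in Uninjured 1 and 71286 in Uninjured 2, with 5 of 8 lower by edgeR's quasi-likelihood test. Fibroblast genes summed to 5558 and 4111 against 715 and 718, with 5 of 8 higher, and macrophage genes to 465 and 485 against 195 and 169, with 8 of 8 higher. Endothelial genes summed to 987 and 793 against 802 and 780, with none called. Smooth muscle genes summed to 407 and 630 against 273 and 354, with 2 of 5 higher. In the remaining lists 1 of 6 lymphocyte and 2 of 4 erythroid genes were lower, and 1 of 6 neuron and Schwann cell genes was higher. By the same test 18.3% of all genes were higher and 14.6% lower, so a count of 1 of 6 is near that share. No fibroblast, macrophage or cardiomyocyte marker was at 0 in any library. In whole tissue, a different make-up of cells and a different splicing choice within a cell cannot be told apart, nor can fewer cells of a type from less RNA per cell, and the part of these shifts in the results below was not tested.

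More of the short exons had a lower than a higher mean inclusion in the infarcted hearts. Inclusion is the percentage of an event's reads that contain the exon. The median difference, infarcted minus uninjured, was -0.72 percentage points, and 230 exons were below 0 and 162 above. Over all exons tested the median was -0.26, with 2879 exons below 0 and 2460 above. Without Infarcted 1 the medians were -0.30 for the short exons and -0.29 for all exons. The median size of the difference between group means was 3.13 points, and 2.96 over all exons. Single libraries of 1 group differed by a median of 4.09 points in the infarcted and 3.60 in the uninjured pair. The short exons were also less fully included to begin with, at a median of 78.5% in uninjured hearts against 90.9% over all exons. The intermediate range, from 10% to 90% in uninjured hearts, held 176 of the 392.

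No short exon passed the test of a changed inclusion. With edgeR's quasi-likelihood fit, which asks whether the ratio of the 2 forms depends on the group, 0 of 392 had an adjusted p below 0.05 (0.0% of all exons tested), and the smallest adjusted p was 0.678. At an unadjusted p below 0.05 there were 20 (5.10%), 17 lower and 3 higher, while 7.3% of all exons reached it, 4.63% lower and 2.67% higher. DESeq2 called 0 with 13 at that unadjusted level, and limma on the logit of inclusion called 0 with 20. Limma with weights for the read depth of each value called 3, all lower in infarcted hearts: Bnip2 (adjusted p = 0.00346), Asph (adjusted p = 0.0281) and Rpn2 (adjusted p = 0.0437). That fit called 0.262% of all exons lower and 0.187% higher.

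These 3 exons were among the best covered of those with large differences. In Bnip2, a BCL2-interacting protein, the 36-nt exon (chr9:69852113-69852148, mm9, plus strand) was included at 82.6% and 73.1% in the infarcted hearts and at 96.9% and 94.6% in the uninjured ones. It was thus near full inclusion only in the uninjured hearts, at 242 reads or more per library, and its log2 odds ratio was -2.62 ± 0.57 (SE). In Asph, whose locus encodes junctin and junctate of the calcium store membrane, the 42-nt exon (chr4:9551507-9551548, minus strand) was at 58.4% and 58.9% against 80.1% and 85.3%. The infarcted pair agreed to within a point, and the log2 odds ratio was -1.77 ± 0.45. A second Asph exon of 48 nt was at 81.5% and 79.6% against 80.02% and 75.4%, so its groups overlapped in range. In Rpn2, a subunit of the oligosaccharyltransferase that glycosylates proteins in the endoplasmic reticulum, the 48-nt exon was at 36.9% and 33.5% against 61.3% and 62.8%. The mean difference was -26.8 points, with a log2 odds ratio of -1.58 ± 0.42. None of the 3 host genes passed the test of its own level.

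Groups that did not overlap were counted next, that is, both infarcted values below or above both uninjured values. There were 114 such exons with lower inclusion (29.1%; 23.2% of all exons) and 56 with higher inclusion (14.3%; 16.9% of all exons). The counts grow when a library is left out, since fewer values must separate: without Infarcted 2, 186 were lower (47.4%; 37.8% of all exons) and 91 higher (23.2%; 29.8%), and without Infarcted 1, 160 were lower (40.8%; 40.9%) and 114 higher (29.1%; 30.1%). Leaving out Uninjured 1 gave 108 higher and Uninjured 2 gave 104, for which the share of all exons is not given.

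Large differences were mostly lower inclusion in the infarcted hearts. Asking for no overlap, 20 reads in every library and group means at least 10 points apart left 36 exons lower (9.18%; 4.8% of all exons) and 8 higher (2.04%; 3.01% of all exons). Without Infarcted 2 the counts were 39 lower and 11 higher. The count of higher exons was 17 without Infarcted 1, 14 without Uninjured 1 and 15 without Uninjured 2. Fewer values must separate when a library is left out, and the share of all exons in these settings is not given. Of the 36, a length divisible by 3 was found in 32 (88.9%; 67.3% of all short exons). Wholly coding were 26 of the 32 that could be placed, a share like that of all placed short exons, 285 of 342 (83.3%). The host gene's own level was higher by edgeR in 4 of the 36 (11.1%; 18.3% of all genes) and lower in 1 (2.78%; 14.6% of all genes), and did not pass the test in the others. Lower inclusion at this size was seen in 32 of the 264 exons with a length divisible by 3 (12.1%) and in 4 of the other 128 (3.13%). Intermediate inclusion in uninjured hearts, where a change of many points is possible, was also more common in the former, at 53.4% against 27.3%.

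**Figure D1:**
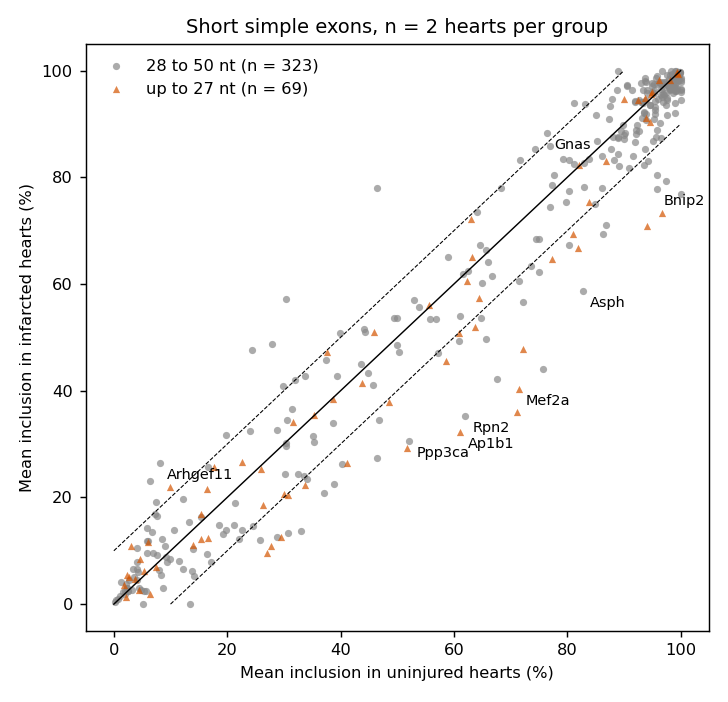
Mean inclusion (%) in the 2 infarcted hearts against the mean in the 2 uninjured hearts for each of the 392 short simple exons. Triangles are exons of up to 27 nt and grey points those of 28 to 50 nt, the solid line marks equality and the dashed lines 10 points either way; more points lie under the lower dashed line than over the upper one, among them Mef2a, Ap1b1, Rpn2 and Asph.

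The share was highest among the shortest exons. Of the 69 exons of up to 27 nt, 13 met the 3 conditions with lower inclusion (18.8%) and 0 with higher, while of the 323 exons of 28 to 50 nt, 23 were lower (7.12%) and 8 higher (2.48%). In simple exons over 50 nt with a length divisible by 3 the shares were 5.04% lower and 3.10% higher, in those with other lengths 2.42% and 1.82%, and in complex exons, where neighbouring exons vary too, 5.84% and 4.25%. These are descriptions of the classes, and no test of the difference between classes was made. The exons of up to 27 nt also had fewer reads, a median total of 184 against 304 at 28 to 50 nt. Their replicates differed more, by medians of 6.27 points (infarcted) and 4.66 (uninjured) against 3.53 and 3.08. At an unadjusted edgeR p below 0.05 there were 3 of the 69 (4.35%), against 7.3% of all exons tested. Weighted limma called 0 of the 69. Intermediate inclusion, where a change of many points is possible, was also more common among the shortest exons, at 42 of 69 against 134 of 323 in uninjured hearts. Among exons at 10% to 90% over all libraries, 18.5% of the 189 short exons and 11.3% of 2088 exons of every kind were lower at this size.

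**Figure D2:**
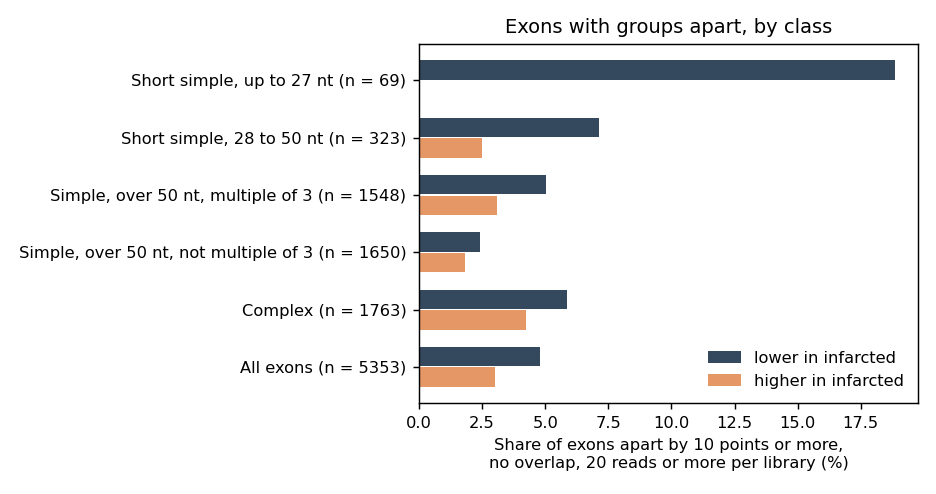
Share of exons in each class (%) whose groups did not overlap, with 20 reads or more in every library and means at least 10 points apart; dark bars are lower and light bars higher inclusion in infarcted hearts. The bar for exons of up to 27 nt reaches 18.8% lower with 0 higher, against 4.8% and 3.01% over all 5353 exons.

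Mef2a and Mef2d encode transcription factors of the MEF2 family, which drive muscle genes. The 24-nt exon of Mef2a (chr7:74389407-74389430, mm9, minus strand) is the acidic exon known as beta, which is typical of muscle and brain and strengthens activation. It was included at 43.3% and 37.6% in the infarcted hearts and at 68.8% and 74.0% in the uninjured ones. This was the largest difference among exons with 20 reads in every library, -31.0 points between means of 40.4% ± 4.01 and 71.4% ± 3.69 (SD, n = 2 each), with a log2 odds ratio of -1.83 ± 0.52 and an edgeR adjusted p of 0.678. The corresponding 21-nt exon of Mef2d was at 65.6% and 63.6% against 76.1% and 78.7%, again with both infarcted hearts lower. Neither gene's own level passed the test (log2 fold changes of -0.17 and -0.20). Max, the partner of MYC, had a 27-nt exon at 62.2% and 39.4% against 65.2% and 56.8%, where Infarcted 2 alone lay well below the rest. Brd8 was at 93.1% and 90.9% against 98.2% and 100%, with 0 of 150 reads skipping the exon in Uninjured 2, which allows up to 2.00%. All 7 exons of the transcription and chromatin list had a mean below the uninjured one, with a median of -10.2 points. In 5, all lower, the groups did not overlap (71.4%, against 23.2% of all exons). The list was written with earlier results of these data known, so this shared direction is a description only. A 47-nt exon of Usf2, an E-box factor, was at 79.6% and 85% against 95.5% and 91.8%.

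Calcium signalling and kinase genes held the largest set, 21 exons, with 9 lower (42.9%; 23.2% of all exons) and 3 higher (14.3%; 16.9% of all exons) without overlap and a median of -2.84 points. Calcineurin, the calcium-activated phosphatase, has 3 catalytic subunit genes, and each has a 30-nt cassette exon at the corresponding place. The exons of Ppp3ca and Ppp3cb are identical at 26 of 30 positions, and that of Ppp3cc matches Ppp3ca at 14 and Ppp3cb at 15. Inclusion of the Ppp3ca exon (chr3:136594975-136595004, plus strand) was 35.5% and 25.8% in infarcted and 47.3% and 56.9% in uninjured hearts, so the groups stood apart by 11.8 points at their nearest. In Ppp3cb it was 79.2% and 84.1% against 93.1% and 88.7%, again lower in both infarcted hearts. The Ppp3cc exon was at 97.8% and 93.1% against 94.3% and 98.9%, with overlap. The log2 odds ratios were -1.28 ± 0.59, -1.11 ± 0.67 and -0.65 ± 1.28. The 3 exons thus range from about even use to near full inclusion.

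Other exons of this list with lower mean inclusion had fewer reads, while the kinase exons of Mknk1 and Bckdk, outside the list and given further on, were higher without overlap. The 21-nt exon of Ptk2, the focal adhesion kinase, was at 5.88% and 13.2% against 29.4% and 24.8%, at 24 to 42 reads. Mink1, a Ste20-like kinase, had a 24-nt exon at 37.3% and 21.2% against 40.1% and 63.5%, and its nearest infarcted and uninjured values differed by less than 3 points. The 27-nt exon of Mtmr3, a phosphoinositide phosphatase, was at 42.7% and 48.5% against 66.8% and 50.3%. Calcium/calmodulin kinase exons were lower on average: the 33-nt exon of Camk2a was at 84.4% and 89.3% against 90.3% and 100%, and the 45-nt exon of Camk2b at 93.9% and 60% against 100% and 100%. The 60% rests on 12 reads of Infarcted 2, and skipping reads of up to 5.45%, 8.57% and 9.38% are possible at the 55, 35 and 32 reads behind the values of 100%. The Camk2b exon had skipping reads in the infarcted libraries only. It met the minimum of 5 reads of each form through them, so its direction is tied to the choice of exons. Both Camk2a and Camk2b were also lower as genes (log2 fold changes of -0.82 each, edgeR adjusted p = 0.006 and 0.0156).

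Gnas, which encodes the stimulatory G protein subunit, had the best covered exon with higher inclusion. Its 45-nt exon (chr2:174162248-174162292, plus strand) separates the long and short forms of the protein. Inclusion was 88.1% and 88.5% in the infarcted hearts and 75.7% and 77.2% in the uninjured ones, at 781 to 1355 reads, with a log2 odds ratio of 1.22 ± 0.41. The groups lay 10.9 points apart at their nearest, while each pair of libraries agreed to within 1.5 points. In Insr, whose 36-nt exon separates the 2 insulin receptor forms, inclusion was 43.7% and 46.2% against 42.6% and 44.6%, with overlap and at most 46 reads. Both exons of the calcium release channel differed by under 2 points on average: the 24-nt exon of Ryr2 was at 2.63% and 4.68% against 2.67% and 1.06%, and the 36-nt one at 98.5% and 96.6% against 95.8% and 96.0%. Trdn, triadin, which anchors calsequestrin to that channel, had a 33-nt exon at 99.4% and 99.1% against 98.0% and 98.4%, and a 48-nt exon at 62.1% and 61.7% against 63.9% and 59.2%.

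**Figure D3:**
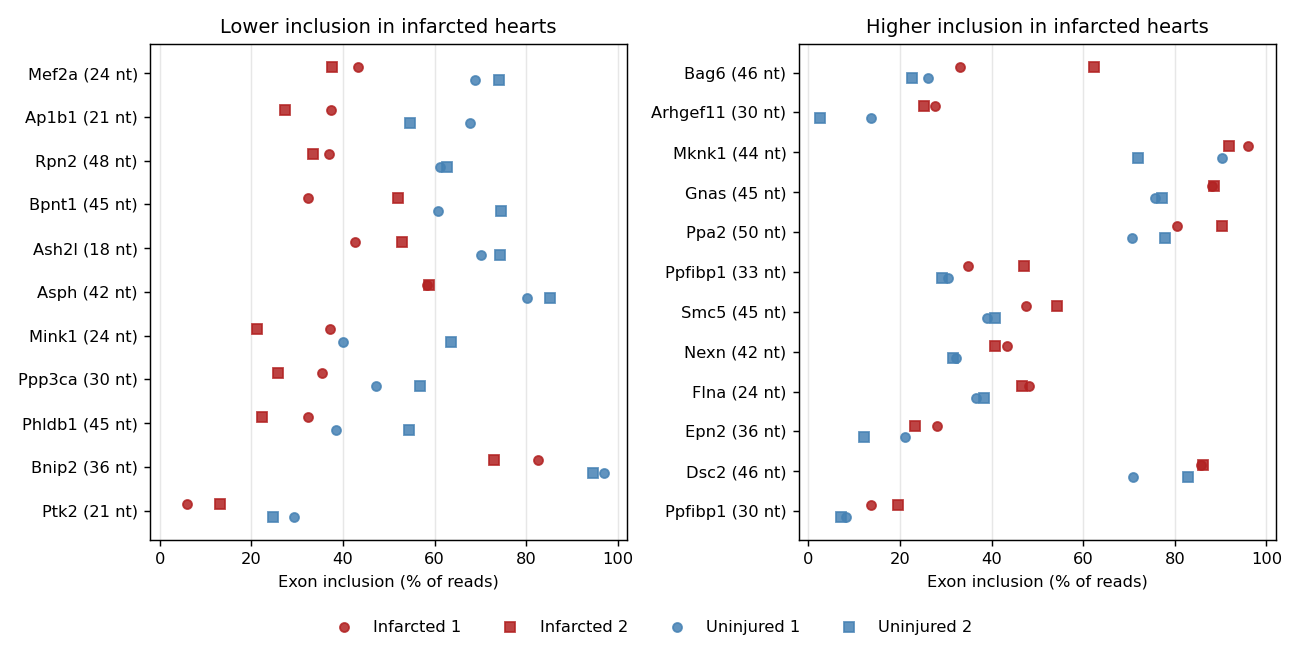
Inclusion (%) in each of the 4 libraries for 11 of the 12 exons with the largest lower and the 12 with the largest higher mean inclusion in infarcted hearts, among those with 20 reads in every library and groups that do not overlap. Red marks are infarcted and blue marks uninjured hearts; Gnas, Nexn, Flna, Rpn2 and Asph show pairs that lie close together, while Bag6 and Mink1 are spread within a group.

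Membrane traffic genes had 16 short exons, of which 12 were below 0, with a median of -3.04 points. Over all exons 2879 of 5353 were below 0. The 21-nt exon of Ap1b1, the beta subunit of the clathrin adaptor AP-1, was at 37.4% and 27.3% against 67.8% and 54.6% (chr11:4933245-4933265, plus strand). The mean difference was -28.8 points, on only 27 to 53 reads per library, with a log2 odds ratio of -1.59 ± 0.65. The 42-nt exon of its paralog Ap2b1, in the adaptor of the plasma membrane, was at 25.0% and 42.9% against 27.3% and 50.0%, and the groups overlapped. Clathrin heavy chain itself, Cltc, had a 21-nt exon (chr11:86514563-86514583, minus strand) at 28.6% and 24.3% against 43.2% and 39.3%, lower in both infarcted hearts by at least 10.6 points. Its 38-nt exon was at 3.14% and 2.98% against 6.14% and 2.86%, with overlap. Cltc as a gene was higher (log2 fold change 0.59, adjusted p = 0.038 by edgeR). The 24-nt exon of Picalm, which recruits clathrin, was at 45.9% and 30.9% against 41.4% and 36.1%, with the infarcted hearts on either side of the uninjured ones, while the gene was higher by 1.55 on the log2 scale. The 45-nt exon of Cd47 was at 18.5% and 26.5% against 35.1% and 42.6%. Uso1, a vesicle tether of the Golgi outside the list, was at 16.8% and 8.42% against 23.8% and 35.1%. The 38-nt exon of Ktn1, kinectin, was near full inclusion in every library, from 97.6% to 99.5%.

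Ppfibp1, liprin beta 1, held 3 of the short exons, with unlike values. Its 33-nt and 30-nt exons farther downstream were higher in infarcted hearts, at 34.9% and 47.1% against 30.5% and 29.1%, and at 13.6% and 19.5% against 8.31% and 7.08%. Another exon, of 33 nt and upstream of both, was at 47.5% and 34.6% against 51.2% and 40.2%, with overlap. The gene itself was higher in infarcted hearts (log2 fold change 0.85, edgeR adjusted p = 0.0068). Epn2, an endocytic epsin outside the membrane traffic list, had a 36-nt exon at 28.1% and 23.2% against 21.1% and 12.1%.

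Cytoskeleton and motor genes had 12 exons, 7 lower (58.3%; 23.2% of all exons) and 1 higher (8.33%; 16.9% of all exons) without overlap, with a median of -4.75 points. The 18-nt exon of Macf1, a giant linker of actin and microtubules, was at 72.5% and 66.1% against 79.0% and 83.1%. In smooth muscle myosin, Myh11, the 39-nt exon was at 26.6% and 25.8% against 43.9% and 36.7%. The gene itself was at 60.3 and 155 CPM against 42.5 and 50.1, highest in Infarcted 2, and the part of that in the exon values was not tested. The exception was Arhgef11, a guanine nucleotide exchange factor, whose 30-nt exon was at 27.6% and 25.3% against 13.7% and 2.55%. Its mean was 18.3 points higher, at 26 to 45 reads, with a log2 odds ratio of 1.92 ± 0.85. Clasp1, Add1 and Myo18a, the other well covered exons of the list, had mean differences of -4.28, -6.42 and -1.59 points.

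Sarcomere and Z-disc exons were mostly close to their uninjured level, with a median difference of 0.30 points over 9 exons. The best covered of all these was the 30-nt exon of Mybpc3, cardiac myosin-binding protein C, at 99.7% in both infarcted libraries and at 99.95% and 99.96% in the uninjured ones. The log2 odds ratio was -3.09 ± 0.74, although the difference was -0.28 points, at 2606 to 3422 reads. The 45-nt exon of Sorbs2, an adaptor of the Z-disc, was at 96.3% and 96.4% against 99.4% and 99.1%, and its gene was higher by 1.14. Smyd1, a muscle methyltransferase, was at 60.8% and 59.5% against 67.4% and 62.6%. The 24-nt exon of Fhod3, a cardiac formin, was included in nearly every read, from 98.8% to 100%. Nexn, nexilin of the Z-disc, lay outside the list and was the reverse: its 42-nt exon was at 43.4% and 40.6% against 32.3% and 31.5%, at 789 reads or more, with a log2 odds ratio of 0.63 ± 0.40.

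Adhesion and matrix genes had 14 exons with a median of 0.19 points. Of these 14 exons, 2 met the 3 conditions, both lower (14.3%, against 4.8% of all exons). The 18-nt exon of Hspg2, the basement membrane proteoglycan perlecan, was at 18.5% and 26.3% against 33.1% and 34.5%, while the gene was higher by 1.5 (edgeR adjusted p = 0.00044). Aplp2, a relative of the amyloid precursor, had a 36-nt exon at 35.1% and 33.8% against 48.97% and 44.8%. Kindlin-2, Fermt2, an integrin activator outside the list, had both its short exons lower: the 21-nt one was at 46.0% and 58.0% against 65.3% and 62.3%, and the 33-nt one at 55.2% and 66.0% against 71.0% and 72.0%. Filamin A, Flna, which crosslinks actin and was also outside the list, had a 24-nt exon at 48.1% and 46.6% against 36.7% and 38.4%. The Flna gene was higher by 1.73. Fn1 and Tns1 overlapped between groups, at mean differences of -1.99 and -0.33 points. Flna, Hspg2 and Fn1 were higher as genes in the same libraries in which the fibroblast genes were higher, and the part of that shift in their exon values was not tested.

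RNA processing genes contributed 6 exons with a median of -2.41 points and none of the large differences. Hnrnph1, Pcbp2 and Hnrnpa2b1, RNA-binding proteins, had mean differences of -2.70, -2.10 and -1.67 points, and the 36-nt exon of Srsf7 was at 78.8% and 78.5% against 81.1% and 73.7%. The 34-nt exon of Ptbp2, which is skipped where PTBP1 is active and whose loss breaks the reading frame, was at 35.1% and 72.2% against 75.2% and 54.3%. With 11 to 25 reads per library these values overlapped widely. The 2 metabolic exons were Acly, the citrate-cleaving enzyme of fatty acid synthesis, and Dnm1l, the mitochondrial fission GTPase. The 30-nt exon of Acly was at 43.9% and 44.4% against 85.9% and 65.6%, a mean difference of -31.6 points, with 18 reads in Uninjured 1. The 39-nt exon of Dnm1l was at 11.1% and 15.8% against 10.3% and 3.11%.

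Exons in no list supplied 305 of the 392, with a median of -0.37 points. They held 20 large differences lower (6.56%, against 4.8% of all exons) and 5 higher (1.64%, against 3.01% of all exons). Among them Ash2l, a subunit of histone H3 methyltransferases, had an 18-nt exon at 42.6% and 52.9% against 70.1% and 74.3%. In Mpp6, a membrane scaffold, a 42-nt exon was at 86.8% and 74.0% against 94.4% and 97.4%, at 107 reads or more. Bpnt1, a nucleotide phosphatase, was at 32.4% and 52% against 60.7% and 74.6%, and Phldb1 at 32.5% and 22.3% against 38.4% and 54.5%. On the higher side stood Bag6, a chaperone, at 33.0% and 62.4% against 26.1% and 22.7%, where Infarcted 2 was 29.3 points above Infarcted 1. Mknk1, a kinase of the cap-binding factor, was at 96.0% and 91.8% against 90.4% and 71.9%, Ppa2, the mitochondrial pyrophosphatase, at 80.4% and 90.4% against 70.7% and 77.8%, and Smc5 of the chromosome-maintaining complex at 47.5% and 54.2% against 39.0% and 40.7%. Nexn, given above, also met the 3 conditions, at 10.1 points. Dsc2, a desmosomal cadherin, was at 85.7% and 86.1% against 71.0% and 82.9%. Its mean difference of 8.93 points was too small to count among the large ones.

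Some of the smallest p-values belonged to small differences near full inclusion. The 42-nt exon of Numa1, a spindle protein, was at 96.5% and 96.7% in infarcted hearts and at 100% in both uninjured ones, where 0 of 173 and 0 of 244 reads skipped it, allowing up to 1.73% and 1.23%. Dync1li1, a dynein chain, was at 94.4% and 98.5% against 100% in both, with up to 2.54% and 2.27% possible. The reverse was seen in Bckdk, the kinase of branched-chain amino acid breakdown, at 100% in both infarcted hearts, allowing up to 0.794% and 0.949% skipping, and at 99.2% and 99.1% in the uninjured ones. Numa1, Dync1li1 and Bckdk had skipping reads in a single group only. They met the minimum of 5 reads of each form through that group alone. Their direction is thus tied to the choice of exons and is a description only. Ndrg4 was at 94.6% and 94.5% against 97.3% and 98.0%. The largest mean differences of all were in thinly read exons: Fbxo25 differed by -35.1 points on 13 to 27 reads per library, and Unc5b, a netrin receptor, 31.5 points higher with 16 reads in each uninjured library. Unc5b as a gene was higher by 1.15 on the log2 scale.

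Of the 5 shortest exons, Ash2l stood apart between groups, as given above, and the other 4 overlapped. The 3-nt exon of Tle2, a Groucho corepressor, was at 75.0% and 69.2% against 48.2% and 77.8%, on 11 to 20 reads. Fuca1 (15 nt) was at 93.7% and 95.3% against 88.8% and 96.4%, Anxa6 (18 nt) at 63.9% and 66.4% against 64.7% and 61.5%, and Trappc13 (18 nt) at 77.6% and 73.0% against 74.7% and 92.9%. The 18-nt exons of Macf1 and Hspg2, given above, did not overlap. At the length limit, the 14 exons of 50 nt had a median difference of 0.90 points (range -3.89 to 11.2), and the 31 simple exons of 51 nt, just outside it, a median of -0.50 (range -41.6 to 17.2). The 9 exons with 10 to 11 reads in their thinnest library had a median of -0.22, and the 8 left out with 9 to 10 reads 3.53.

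The levels of the genes that carry these exons were tested apart from inclusion. Of 372 host genes 366 were tested for their level by edgeR; 39 were higher (10.7%; 18.3% of all genes) and 62 lower (16.9%; 14.6% of all genes), with a median log2 fold change of -0.09 against 0.02 over all genes. The number of calls changed with the libraries kept. A fit with a library left out has a single heart in a group, which changes the test for every gene. The counts that follow have no share of all genes beside them, so they show nothing particular to host genes. Without Uninjured 2 they came to 2 higher and 0 lower (50 and 69 at an unadjusted p below 0.05; DESeq2 called 19 and 30), without Infarcted 2 to 25 and 35, and without Infarcted 1 to 24 and 49.

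Genes that control short exons changed in both directions. Of 52 listed splicing regulators 47 were tested; 5 were higher and 5 lower, or 10.6% each, against 18.3% and 14.6% of all genes, and the list's median log2 fold change was 0.15. Ptbp1, the repressor of neural and muscle exons, was at 89.2 and 71.3 CPM in the infarcted hearts and at 36.9 and 33.3 in the uninjured ones, a log2 fold change of 1.19 ± 0.19 (SE; edgeR adjusted p = 0.00064). Its relative Ptbp3 was at 58.7 and 51.7 against 33.1 and 24.8. Both infarcted hearts lay above both uninjured ones for each. The SR-related protein gene Srrm2 was higher by 0.65, Tra2b, an exon enhancer-binding factor, by 0.61, and Celf4 by 1.61, at 0.78 and 1.88 CPM against 0.50 and 0.37.

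On the lower side, Rbfox1, which promotes muscle and neural exons from the downstream intron, was at 16.6 and 11.8 CPM against 47.5 and 34.1. Its log2 fold change was -1.52 ± 0.23 (edgeR adjusted p = 0.0005), while Rbfox2 was at 92.3 and 103 against 84.2 and 79.1 and did not pass. Srrm4, the microexon activator of neurons, was at 12.3 and 9.39 against 23.7 and 19.9, a change of -1.003 ± 0.21 (adjusted p = 0.00346 by edgeR). Rbm38 and Khdrbs3, RNA-binding proteins, fell by 1.03 and 0.79 on the log2 scale, and Raver2, a PTB partner, fell by 0.75. Mbnl1, Mbnl2, Celf1, Rbm20 and Rbm24, also tied to heart splicing, did not pass, with log2 fold changes of 0.06, 0.32, 0.19, -0.42 and -0.19. Fits with a library left out have a single heart in a group, and their counts have no share of all genes beside them. Without Uninjured 2 edgeR called 0 of the list (4 higher and 5 lower at an unadjusted p below 0.05; DESeq2 called 1 and 3). Without Infarcted 2 edgeR called 3 and 3, without Infarcted 1 it called 3 higher, and without Uninjured 1 it called 3 lower. The cardiomyocyte genes were lower and the fibroblast and macrophage genes higher in the same libraries, and the part of that shift in the regulators' levels was not tested.

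**Figure D4:**
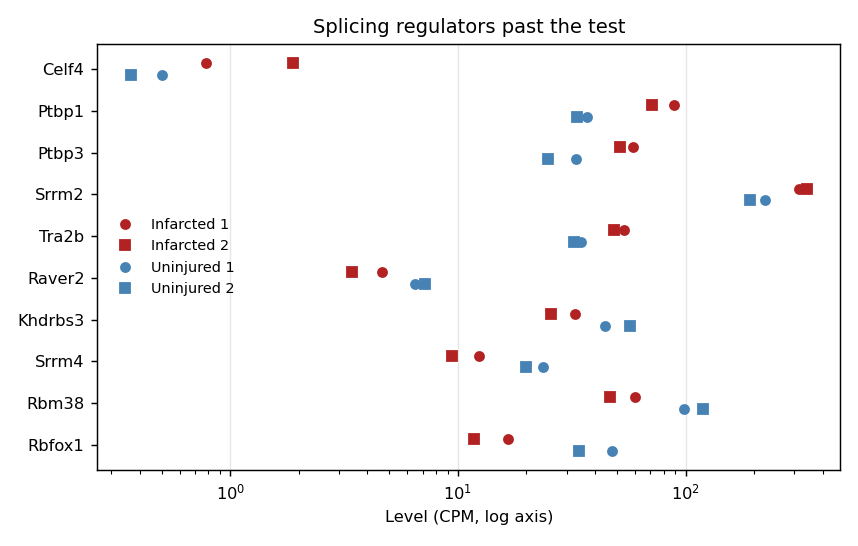
Level in CPM (log axis) in each of the 4 libraries for the 10 splicing regulators past edgeR's test, ordered by log2 fold change. Red marks are infarcted and blue marks uninjured hearts; Ptbp1 sits at 71.3 to 89.2 in infarcted and 33.3 to 36.9 in uninjured hearts, and Rbfox1 at 11.8 to 16.6 and 34.1 to 47.5.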

How the data were processed

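Poly-A RNA of 4 mouse hearts was measured. The authors deposited gene read counts and a splicing table giving, per event and library, percent inclusion and the corrected reads of both forms; the build is mm9, per the submitters' processing notes. No aligner, splicing tool or strandedness is named in the sources used here; overlapping antisense genes may therefore share reads. The deposited percent equalled the read ratio within 0.05 points in 99.8% of exons. The reads, which need not be whole, were rounded and tested with edgeR 4.0.16 (a library term, form, and form-by-group interaction) over all 5353 exons with Benjamini-Hochberg adjustment. Genes were tested with edgeR after TMM and filterByExpr over 13905 genes, of which 33.0% were called. Alternatives were limma 3.58.1 (0.5 reads added), weighted limma, DESeq2 1.42.0, a replicate block, thinning, other minima and lengths, and each library left out. The edgeR tests of inclusion and of gene level were tried on simulated data with known answers. The limma, weighted limma and DESeq2 fits were not. Limits for values at 0% or 100% are 3 reads of the total and cover counting error only.

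The 392 exons and all lists were chosen with earlier results of these data known. Exons are named where edgeR called them, as the 12 largest differences each way without overlap and with 20 reads, as the 4 best covered per list, and as the 5 shortest; all other named exons were picked after their values were seen. Regulators are named up to 6 each way among those called; others were picked likewise. Annotation and sequences come from GENCODE M21, matched by exon and intron lengths, both introns in 338 exons; 50 had only a symbol match. The 479 events of the table's microexon class had no reads listed for the uninjured libraries and are not among the 392. The labels say 2 mice per group. 1 exon that this rule names is not reported here.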

Additional observations from a re-analysis of the deposited data

How the results depend on the processing

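With 2 hearts a group and a median of 60 to 75.5 reads per exon, depth and spread between libraries limit the precision of each difference. The count of short exons called was 0 in every edgeR, DESeq2 and unweighted limma fit run and 3 with weighted limma, in which Bnip2 (-2.57), Asph (-1.76) and Rpn2 (-1.57, log2 odds ratios) passed. The replicate numbers did not pair the libraries (correlation of deviations -0.0086 over exons and 0.085 over genes); with the replicate block 0 exons were called, 44 host genes were higher and 66 lower, and 6 regulators were higher and 5 lower. Exons without overlap ranged with a library left out from 160 to 186 lower and from 91 to 114 higher; with at least 20 reads of each form they were 69 and 33, with lengths up to 30 nt 34 and 9, and with lengths up to 60 nt 96 were higher. Exons at least 10 points apart ranged from 37 to 44 lower and from 11 to 17 higher with a library left out; with lengths up to 30 nt they were 16 and 1, and with lengths up to 60 nt 14 were higher. The number of exons counted differed with the minima and lengths, and with a library left out fewer values had to separate. These counts are thus not comparable between settings and have no share of all exons beside them. The median difference stayed between -1.02 and -0.30 with a library left out and was 0 with no minimum of each form. With a library left out, host genes called ranged from 2 to 34 higher and from 0 to 69 lower in edgeR, and with DESeq2, added after seeing the data, were 21 and 42 without Infarcted 1, 19 and 33 without Infarcted 2, 34 and 67 without Uninjured 1 and 19 and 30 without Uninjured 2. Regulators called then ranged from 0 to 6 higher and from 0 to 5 lower in edgeR, and from 1 to 3 and from 2 to 4 in DESeq2. Fits with a library left out have a single heart in a group, and these gene counts have no share of all genes beside them. Of 97 named exons, the log2 odds ratios of those listed here changed sign under at least 1 alternative. With each library left out in turn, Ap2b1 ran from -1.06 to 0.34, the 38-nt Cltc exon from -1.10 to 0.10, Fhod3 from -2.73 to 4.34, Fn1 from -4.64 to 0.90, Fuca1 from -0.60 to 1.09 and Max from -1.28 to 0.080. Picalm ran from -0.51 to 0.41, the upstream Ppfibp1 exon from -0.69 to 0.14, Ppp3cc from -2.26 to 0.66, Ptbp2 from -1.66 to 0.49 and Srsf7 from -0.23 to 0.44. Tle2 ran from -0.13 to 1.41, Tns1 from -4.51 to 1.23, Trappc13 from -1.80 to 0.055 and the 48-nt Trdn exon from -0.12 to 0.16. Thinning turned Picalm (0.10) and Ptbp2 (0.27), and weighted limma Fn1 (0.50). The cause was not tested.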
